A study of Mus musculus with 90 samples.

Results

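The methionine and one-carbon cycle of the mouse liver was examined through 10 genes, Bhmt, Bhmt2, Mtr, Mat1a, Gnmt, Pemt, Nnmt, Ahcy, Cbs and Cth, of the 24312 gene symbols in the deposited expression table. The genes were chosen by name, and each was represented by its RefSeq transcript with the highest mean level over all 54 RNA libraries. All 10 were found and all 10 passed the filter on low values in each of 5 experiments.

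In this cycle methionine is activated to S-adenosylmethionine, the methyl donor of the cell, which methyltransferases convert to S-adenosylhomocysteine and onward to homocysteine. Homocysteine is then either methylated back to methionine, with betaine or folate as the methyl source, or passed down the transsulfuration route to cysteine. The liver is the main site of this metabolism, and hepatocytes express most of these enzymes at high levels.

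Each library came from the liver of 1 mouse kept on night-restricted feeding (NRF), with food offered at night alone. The labels give the strain as C57BL/6, and the methods give the C57BL/6N substrain for the first 2 experiments and the floxed Nr3c1 mice and C57BL/6J for the mice with floxed Irs1 and Irs2. In the first experiment wild type mice were killed unfed at zeitgeber time (ZT) 10, or at ZT14 with food from lights off (ZT14-fed) or without it (ZT14-unfed), with 2 mice in each group and ribosome-depleted RNA. The remaining experiments used poly(A) RNA at ZT14. In the second, wild type mice were injected before lights off with vehicle (PBS), the glucocorticoid receptor (GR) agonist dexamethasone (dex, 1 mg/kg), the insulin receptor antagonist S961 (44 nM per mouse in the labels) or both, and then fed, beside an unfed vehicle group, with 4 mice in each. For S961 the methods state the dose per body weight, not per mouse. In the third, unfed mice with floxed Nr3c1, the gene of GR, carried an adeno-associated virus that expressed Cre (L-GRKO) or, as controls, GFP from the hepatocyte promoter Tbg, with 4 mice in each. In the fourth, fed and dex-injected mice with floxed Irs1 and Irs2 either carried Alb-Cre, which deletes both insulin receptor substrates in hepatocytes (L-IRSdKO), or lacked Cre, with 4 mice in each. In the fifth, wild type mice had eaten chow (lean) or a high-fat diet (DIO) for 10 weeks and were then unfed or fed, with 3 mice in each. The mice of the first 2 experiments were males 10 weeks old, the L-IRSdKO line entered NRF at the same age, the L-GRKO mice were adult, and the diets began at 5 weeks of age.

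Levels are the deposited RPKM, read numbers scaled by transcript length and library size, which allow comparison between genes per length. Changes are differences of mean log2(RPKM + 0.5), with their SE from limma, and p-values are Benjamini-Hochberg adjusted over all genes tested in the experiment. A change was called at an adjusted p under 0.01 in the first and the fifth experiment and under 0.05 in the others. In these bulk livers, fewer cells of a type and less RNA per cell cannot be told apart.

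Estimated depth in megareads (M) was 25.5 to 38.7 M per library in the NRF experiment, 6.39 to 13.2 M in the injected mice, 15.2 to 27.4 M in the L-GRKO, 3.54 to 4.36 M in the L-IRSdKO and 16.9 to 62.9 M in the obesity experiment. These estimates take the smallest step between low values as 1 read and count the reads behind the values. For the L-IRSdKO experiment they lie below the sequenced totals in the study's summary. The deleted genes followed the labels for Nr3c1, at 12.8 to 16.2 RPKM in controls and 3.93 to 5.35 in L-GRKO livers, and for Irs1, at 2.21 to 4.73 and 0.149 to 0.321 RPKM. Irs2 overlapped between the groups, at 0.614 to 5.61 RPKM in controls and 0.272 to 1.00 in L-IRSdKO livers. The highest value in any L-IRSdKO experiment library was 674 to 914 RPKM, against 18853 to 60597 in the other 46 libraries, so the top of the scale in that experiment is unlike the rest. Adipocyte and pancreatic acinar markers were below the filter in all 5 experiments, and the hepatocyte markers, led by Alb, passed it in all 5. A pair of libraries was looked at more closely. Replicate 4 of the dex group, like replicate 4 of each injected group, carries a library number apart from replicates 1 to 3, and its values for several members differed from theirs. Its mean correlation with its own group, 0.961, did not single it out among the injected mice. Fed vehicle replicate 4 had 0.959, and S961 replicates 3 and 4 had 0.958. Leaving it out thus rests on the library number and the members' own values, and fits without it are not taken as sounder. Replicate 1 of the L-IRSdKO group had the lowest mean correlation with its own group, 0.941 against 0.958 in each of the other 3. Lcn2, an acute-phase gene, was at 227 RPKM in it and at 48.4 to 96.3 in the other 3. The controls of that experiment had Lcn2 at 158 to 231 RPKM, so replicate 1 lay within the control range. Results that rest on either are given with and without it.

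The binding maps placed these genes among the well-occupied part of the liver genome. GR and the insulin-restrained factor FOXO1 had been mapped in ZT14-unfed livers, and the position lists, on mouse genome build mm9, held 10446 GR and 8546 FOXO1 sites. A GR site lay within 50 kb of the transcription start of 9 of the 10 genes and a FOXO1 site within 50 kb of all 10, as against 33.8% and 35.4% of 19783 placed genes. The 9 members other than Mtr averaged above 50 RPKM, and among all 950 placed genes at or above that level the shares were 77.8% and 74.2%. Mtr was the exception for GR, with its nearest site 205496 bp away, and had 1 FOXO1 site 183 bp upstream.

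Site numbers differed between the genes. Bhmt2 had 10 GR and 8 FOXO1 sites within 50 kb, part of them shared with its neighbour Bhmt, which had 5 and 4. Nnmt had 7 GR sites and 4 FOXO1 sites, all of them within 20 kb. Ahcy had 6 of each kind and Mat1a 5 of each, while Cbs had 3 and 2, Pemt 3 and 3, Gnmt 2 and 3, and Cth 2 and 3. Over all members there were 38 distinct GR sites, of which 27 overlapped a FOXO1 site and 35 a DNase-accessible site.

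**Figure D1:**
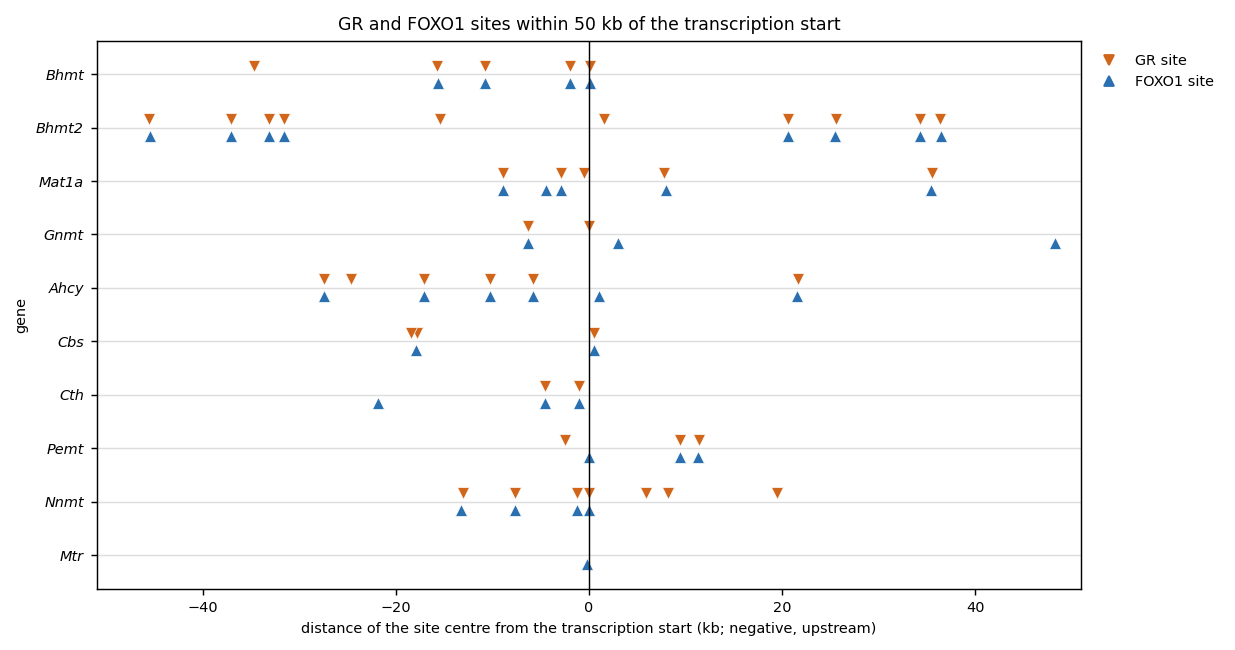
GR sites (triangles pointing down) and FOXO1 sites (triangles pointing up) by distance of the site centre from the transcription start of each gene, in kb, with upstream negative. Bhmt2 had 10 GR sites in the window and Mtr none.

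To show the sequence beneath the binding, the nearest GR site upstream of the start and outside exons is printed for 4 of the 5 genes with a call in the comparisons that follow. The fifth, Bhmt2, had its nearest upstream GR site 15448 bp away, in an intron of Dmgdh. The printed site is not always the nearest. A GR site lay closer, downstream of the start, at 66 bp for Bhmt, 49 bp for Gnmt and 41 bp for Nnmt, and these are not printed. Each printed site is 180 bases of mm9, read 5′ to 3′ on the plus strand. Capitals mark any match, on either strand, to the hexamer TGTTCT, to the GR palindrome (GNACA and TGTNC with any NNN between them) or to the forkhead heptamer TGTTTAC.
Bhmt, chr13:94409828-94410007, intergenic, 2001 bp upstream: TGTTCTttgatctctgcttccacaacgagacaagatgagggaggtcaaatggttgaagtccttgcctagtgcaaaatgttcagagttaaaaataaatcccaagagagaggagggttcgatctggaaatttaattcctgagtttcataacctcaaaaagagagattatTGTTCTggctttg
Mat1a, chr14:41918085-41918264, intergenic, 496 bp upstream: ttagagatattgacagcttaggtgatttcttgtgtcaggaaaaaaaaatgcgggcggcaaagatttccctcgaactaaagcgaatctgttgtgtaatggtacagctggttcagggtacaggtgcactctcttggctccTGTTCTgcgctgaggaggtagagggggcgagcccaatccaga
Gnmt, chr17:46872373-46872552, intronic in Gm16736, 6345 bp upstream: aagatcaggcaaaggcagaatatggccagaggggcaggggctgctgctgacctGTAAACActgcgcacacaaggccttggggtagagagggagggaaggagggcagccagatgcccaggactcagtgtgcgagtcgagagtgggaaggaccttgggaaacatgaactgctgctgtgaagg
Nnmt, chr9:48414366-48414545, intergenic, 1197 bp upstream: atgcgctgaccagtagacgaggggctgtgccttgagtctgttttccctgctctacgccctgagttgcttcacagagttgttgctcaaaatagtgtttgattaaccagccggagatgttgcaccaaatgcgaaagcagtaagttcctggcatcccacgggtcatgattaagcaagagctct
The Bhmt, Gnmt and Nnmt sites overlapped a FOXO1 site and a DNase-accessible site, and the Mat1a site overlapped neither. The Bhmt site held the hexamer at both ends, the Mat1a site held it once, the Gnmt site held the forkhead heptamer on the minus strand, and the Nnmt site held none of these letters. Of all GR sites, 27.7% held TGTTCT, 7.8% the palindrome and 7.29% TGTTTAC. Of the members' 38 GR sites, 7, 3 and 1 did. Gnmt had 2 GR sites within 50 kb, and the 1 not printed held the palindrome. A match is a description of the letters only.

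Expression levels differed widely among the members. Mat1a, the liver methionine adenosyltransferase that makes S-adenosylmethionine, had a median of 1103 RPKM over the 54 libraries. Gnmt, glycine N-methyltransferase, which spends S-adenosylmethionine on glycine, had a median of 1042 RPKM. Bhmt, which methylates homocysteine with betaine, stood at a median of 233 RPKM and Bhmt2, its relative that uses S-methylmethionine, at 88.8 RPKM. The phospholipid methyltransferase Pemt had a median of 181 RPKM, the cysteine-forming lyase Cth 175 RPKM and the nicotinamide methyltransferase Nnmt 158 RPKM. Ahcy, which splits S-adenosylhomocysteine, and Cbs, the first enzyme of transsulfuration, had medians of 79.1 and 76.5 RPKM. Mtr, the folate and cobalamin-dependent methionine synthase, was the lowest member in each experiment, at 0.861 to 3.74 RPKM in single libraries.

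Mat1a and Gnmt were the top members by mean level in each of the 5 experiments. In the L-IRSdKO experiment Mat1a ranked 11 and Gnmt 29 of all genes by mean level, close to the low top of that scale. Ahcy stood at 464 to 818 RPKM in the 8 L-GRKO experiment libraries and at 25.4 to 127 RPKM in the other 46. Near-identical copies, at 98% identity or more, exist elsewhere in the genome for 82.0% of the Ahcy transcript and 82.3% of the Bhmt transcript, so counting could split or add their reads and their values are uncertain. Of the exon bases of Bhmt, 3.37% also overlap Gm15622 on the opposite strand. For Bhmt2 and Cth, 25.8% and 23.4% of the transcript recurred at 90% identity or more.

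**Figure D2:**
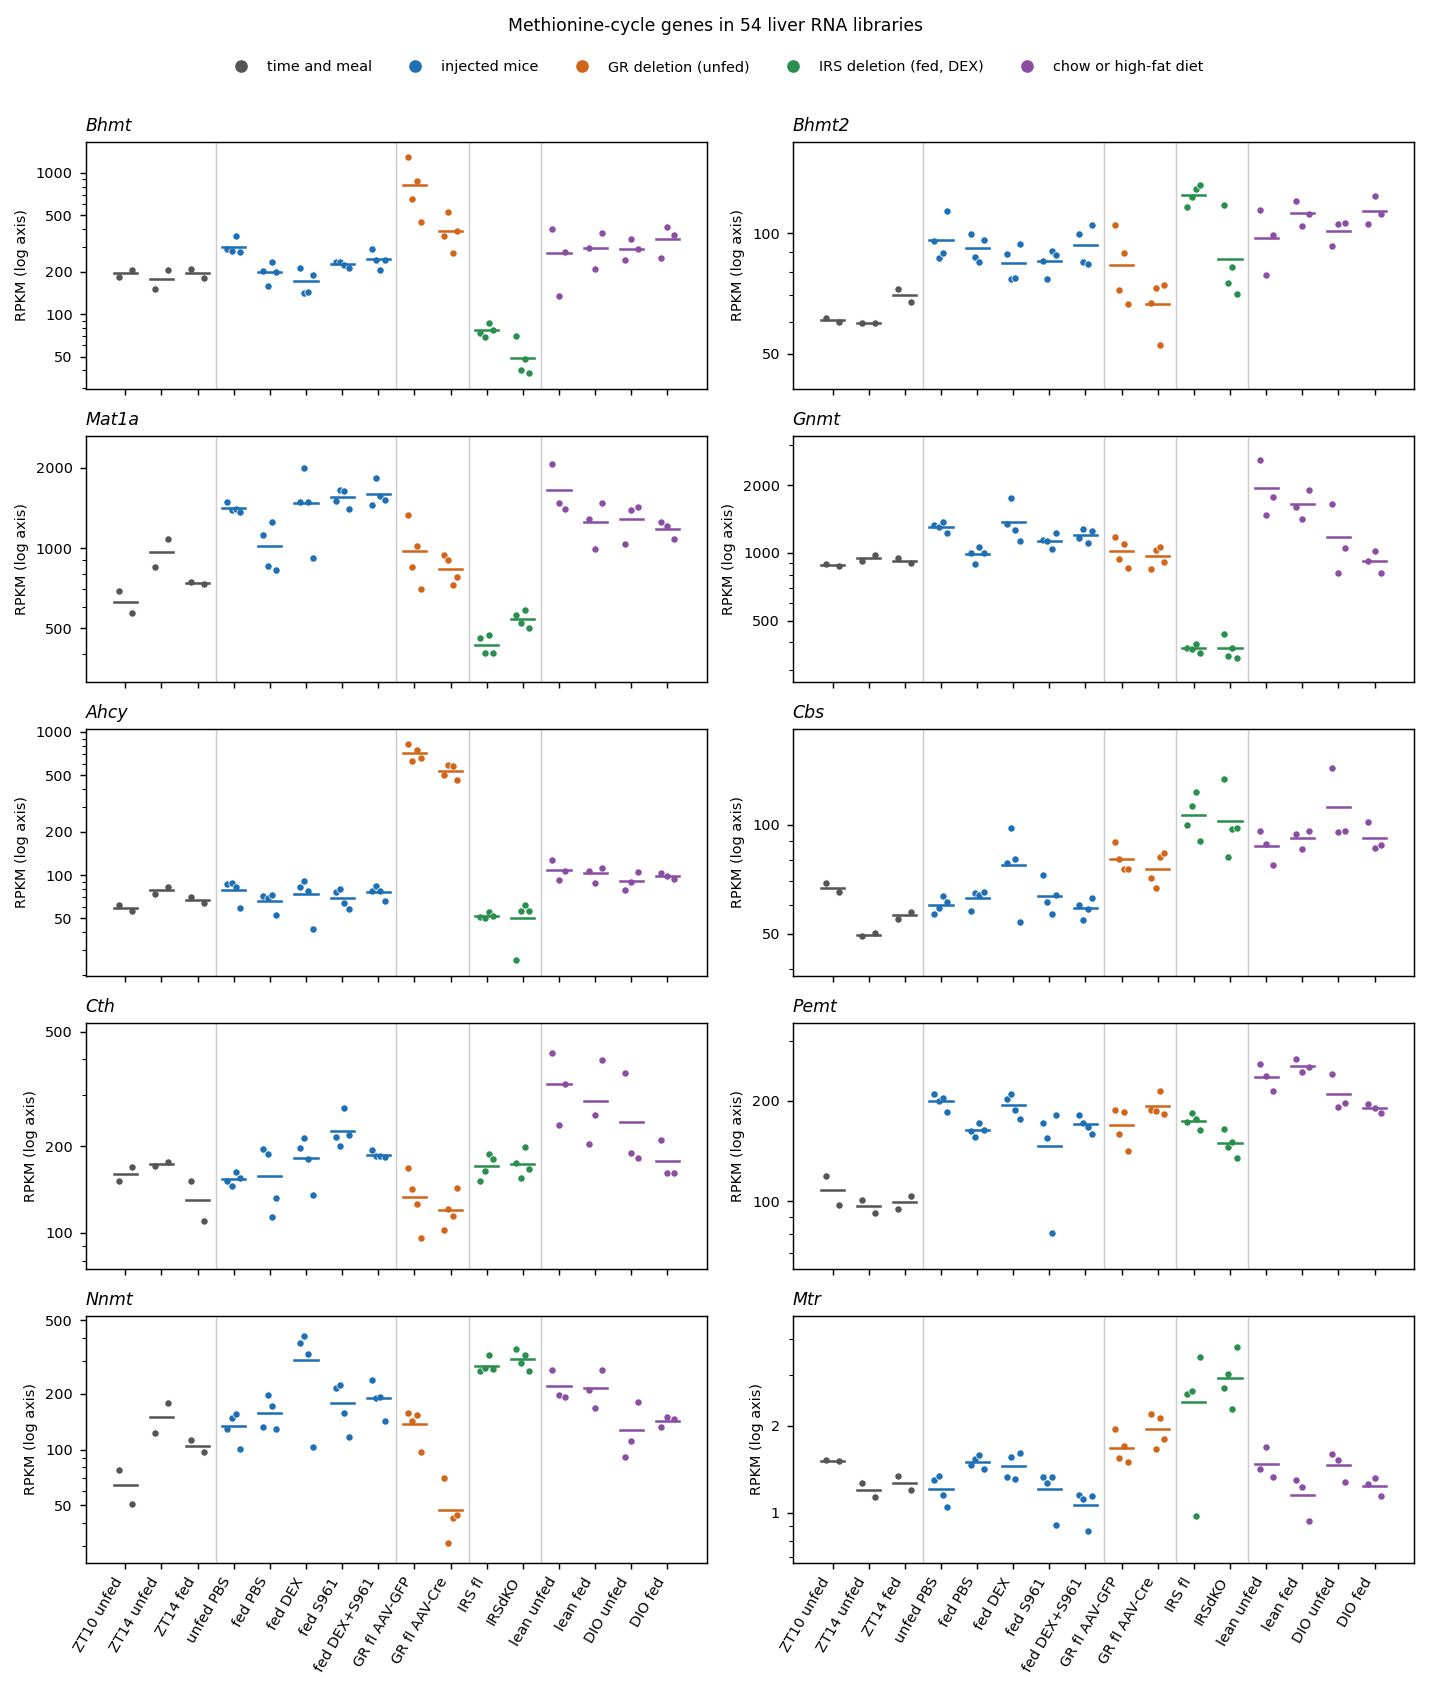
RPKM of the 10 genes in all 54 libraries on log axes, 1 panel per gene, with 1 point per library, groups along the horizontal axis and colours for the 5 experiments. Mat1a and Gnmt sit highest in most groups and Mtr stays between 0.861 and 3.74 RPKM.

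Over the 14 comparisons the 10 genes gave 140 tests, and 7 of them were called. The calls were Bhmt (lower after the meal in vehicle-injected mice and lower in L-IRSdKO), Bhmt2 (lower in L-IRSdKO), Mat1a (higher with dex plus S961 and higher in L-IRSdKO), Gnmt (higher with dex) and Nnmt (lower in L-GRKO). Ahcy, Cbs, Cth, Pemt and Mtr were called in none.

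**Figure D3:**
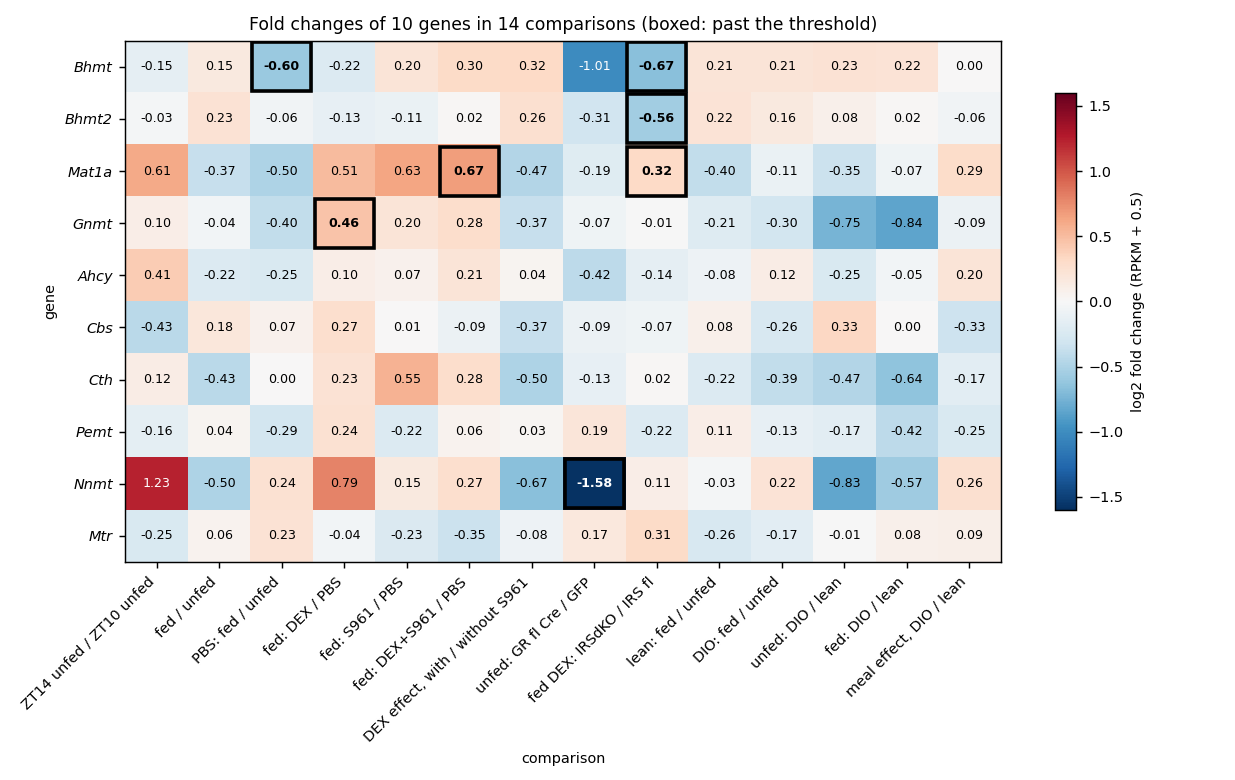
Log2 fold changes of the 10 genes (vertical axis) in the 14 comparisons (horizontal axis) as a colour scale, with boxes around the 7 that passed the threshold of their experiment. Comparisons within an experiment that have a group in common are not independent of each other.

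The comparison of ZT14-unfed with ZT10 livers spans the passage from light to dark without food. The ZT14-unfed mice had also gone longer without food, so time of day and length of fast cannot be told apart. No member was called, against 1.17% of 11003 genes tested, and 4 members had an unadjusted p under 0.05, as did 2907 of the 11003 genes. Nnmt was at 77.3 and 50.9 RPKM at ZT10 and at 123 and 179 RPKM at ZT14-unfed, a log2 change of 1.23 (SE 0.23, adjusted p = 0.023). Mat1a was at 688 and 571 RPKM and then at 847 and 1084 RPKM, a log2 change of 0.61 (SE 0.14, adjusted p = 0.041). Cbs went the other way, from 69.1 and 65.0 RPKM to 49.2 and 50.2 RPKM, a log2 change of -0.43 (SE 0.09, adjusted p = 0.028). In these 3 genes the groups did not overlap. That held for 8 of the 10 members, but with 2 mice per group it also held for 56.2% of all genes. The fourth, Ahcy, stood at 61.8 and 55.9 RPKM at ZT10 and 74.0 and 82.7 RPKM at ZT14-unfed (adjusted p = 0.056).

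The meal was tested in 3 settings on chow. In the NRF experiment, where ZT14-fed shares the ZT14-unfed mice with the comparison before, no member was called, against 1.0% of genes, and the median of all genes was 0.12 on the log2 scale. Mat1a in the fed livers was at 745 and 733 RPKM, below both unfed livers, for a log2 change of -0.37 (SE 0.14, adjusted p = 0.14). Cth was at 151 and 110 RPKM after 170 and 176 RPKM unfed (log2 change -0.43, adjusted p = 0.12), and Nnmt at 113 and 96.6 RPKM (log2 change -0.50, adjusted p = 0.21). A pair of members lay higher in both fed livers. Bhmt2 was at 72.5 and 67.3 RPKM fed and 59.7 RPKM in each unfed liver (log2 change 0.23, SE 0.09, adjusted p = 0.14), and Cbs at 55.0 and 57.6 RPKM after 49.2 and 50.2 RPKM (0.18, SE 0.09, adjusted p = 0.23). The groups did not overlap for 6 members, and for 59.7% of all genes.

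In vehicle-injected mice, Bhmt fell after the meal. Its level was 287, 279, 355 and 276 RPKM in the 4 unfed livers and 203, 159, 233 and 198 RPKM in the 4 fed livers. Each fed liver lay below each unfed liver. The means were 299.5 ± 37.6 and 198 ± 30.6 RPKM (SD, n = 4), and the log2 change was -0.60 (SE 0.14, adjusted p = 0.031). This was 1 of 10 members, beside 3.12% of 11353 genes called in either direction and 0.581% called lower. Fitted on the fed and unfed vehicle groups alone the adjusted p was 0.052, and without the filter on low values it was 0.065. The call was also lost without fed replicate 1 or 2 or unfed replicate 1, 2 or 3, at log2 changes from -0.63 to -0.50 and adjusted p-values from 0.061 to 0.11.

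Gnmt and Mat1a also lay lower in every fed than in every unfed vehicle liver, without passing the threshold. Gnmt was at 1330, 1304, 1366 and 1229 RPKM unfed and at 996, 896, 1065 and 998 RPKM fed, a log2 change of -0.40 (SE 0.11, adjusted p = 0.054). With replicates 1 to 3 alone it was called, at -0.44 (adjusted p = 0.035), in a fit that called 717 genes instead of 354. Mat1a was at 1490.5, 1386, 1402 and 1362 RPKM unfed and at 1122, 856, 1255 and 828 RPKM fed, a log2 change of -0.50 (SE 0.18, adjusted p = 0.13). Pemt lay lower and Mtr higher without overlap (adjusted p = 0.37 and 0.29), so that 5 of 10 members did not overlap, against 13.5% of all genes. The median log2 change of the members was -0.15 and that of all genes 0.10. Nnmt, Cbs, Cth, Bhmt2 and Ahcy overlapped between fed and unfed, with log2 changes from -0.25 to 0.24. In the same comparison 3 of 6 Kupffer cell markers (Adgre1, Cd5l and Csf1r) were called higher, and their list summed to 71.7 to 110 RPKM in fed and 50.8 to 65.1 RPKM in unfed livers. Whether this bears on the members was not tested.

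In lean mice of the obesity experiment no member was called after the meal, against 10.3% of 11541 genes. Bhmt stood at 402, 135 and 276 RPKM unfed and 294, 209 and 378 RPKM fed, and the groups overlapped (log2 change 0.21, SE 0.35). Mat1a was at 2064, 1477 and 1399 RPKM unfed and 1280, 992 and 1473 RPKM fed (log2 change -0.40, SE 0.19, adjusted p = 0.16). Mtr alone did not overlap, as did 43.3% of all genes. In DIO mice the meal gave log2 changes of 0.21 (SE 0.35) for Bhmt and -0.11 (SE 0.19) for Mat1a, and no member was called, against 1.2% of genes, and all 10 overlapped between the groups, where 27.8% of genes did not. Mat1a thus had a lower mean in the fed group in all 4 meal comparisons, called in none, whereas the mean of Bhmt was lower in the vehicle-injected mice and higher in the other 3. No test compared the meal effect between experiments. The test of the difference between the meal response of DIO and lean mice called no member, against 0.13% of genes.

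Glucocorticoid was tested with dex in fed mice. Gnmt rose. Its level was 1342, 1745, 1269 and 1132 RPKM in the 4 dex livers, each above the 4 fed vehicle livers at 896 to 1065 RPKM. The log2 change was 0.46 (SE 0.11, adjusted p = 0.029), or 1.37-fold. It was the 1 member called, beside 3.19% of genes in either direction and 0.995% higher. Gnmt and Pemt were the 2 members without overlap, against 10.5% of all genes. Gnmt was not called after quantile normalization, which gave 0.30 (adjusted p = 0.11), with both groups fitted alone (adjusted p = 0.19) or without the filter (adjusted p = 0.095). The call was also lost without vehicle replicate 1, 2 or 4 or dex replicate 1 or 2, at log2 changes from 0.33 to 0.46 and adjusted p-values from 0.050 to 0.11.

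The calls for Nnmt, Mat1a and Cbs under dex depended on how replicate 4 was treated. Nnmt was at 379, 412, 330 and 104 RPKM in dex livers and at 133, 198, 172 and 130 RPKM in fed vehicle livers. The first 3 dex livers were above all vehicle livers and replicate 4 was below all of them. The log2 change was 0.79 (SE 0.33, adjusted p = 0.20) with it and 1.25 (adjusted p = 0.0035) without it. Mat1a, at 1493, 1998, 1494 and 918 RPKM with dex, gave 0.51 (SE 0.18, adjusted p = 0.13) with it and 0.72 (adjusted p = 0.0068) without it. Cbs, at 78.6, 97.8, 80.3 and 53.9 RPKM with dex and 58.0 to 65.1 RPKM with vehicle, gave 0.27 (SE 0.13, adjusted p = 0.27) and 0.43 (adjusted p = 0.015). Replicate 4 was the lowest dex library for these 3 genes, for Gnmt and for Ahcy, Cth and Pemt. Among replicates 1 to 3 of both groups, which share a library series, 4 members were called: Nnmt at 1.16 (adjusted p = 0.0014), Mat1a at 0.63 (adjusted p = 0.019), Gnmt at 0.55 (adjusted p = 0.011) and Cbs at 0.45 (adjusted p = 0.021). That fit called 828 of 11332 genes, against 362 of 11353 in the main fit. With all libraries and a term for the series, Nnmt (0.79, adjusted p = 0.027) and Mat1a (0.51, adjusted p = 0.036) were called and Cbs was not (0.27, adjusted p = 0.17). The fit with the series term called 1107 of 11353 genes. The separate series of replicate 4 holds 1 library per group, which gives no test. Bhmt, at 211, 140, 143 and 190 RPKM with dex, overlapped the vehicle group (log2 change -0.22, SE 0.14). With dex Glul (1 of 5 pericentral hepatocyte markers) was lower and Sds (1 of 5 periportal ones) was higher. The pericentral list summed to 4733 to 5337 RPKM with dex and 5021 to 6661 RPKM with vehicle. The periportal list summed to 1743 to 2462 and 1480 to 2048 RPKM, and both lists overlapped between the groups. Glul was at 183, 142, 172 and 290 RPKM with dex, with replicate 4 inside the vehicle range of 265 to 332 RPKM. Other genes in dex replicate 4 lay above all vehicle livers. Tat was at 2285 RPKM (vehicle 730 to 1040), Tsc22d3 at 143 RPKM (36.3 to 55.1) and Lcn2 at 112 RPKM (11.8 to 61.6). Fkbp5, at 74.3 RPKM, lay inside the vehicle range of 40.2 to 83.7 RPKM. The Kupffer cell marker Cd5l (1 of 6) and the endothelial markers Clec4g and Kdr (2 of 6) were called lower with dex. The Kupffer list summed to 44.6 to 73.2 RPKM with dex and 71.7 to 110 RPKM with vehicle, and the endothelial list to 56.4 to 73.6 and 69.7 to 81.6 RPKM. Their part in the result was not tested.

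**Figure D4:**
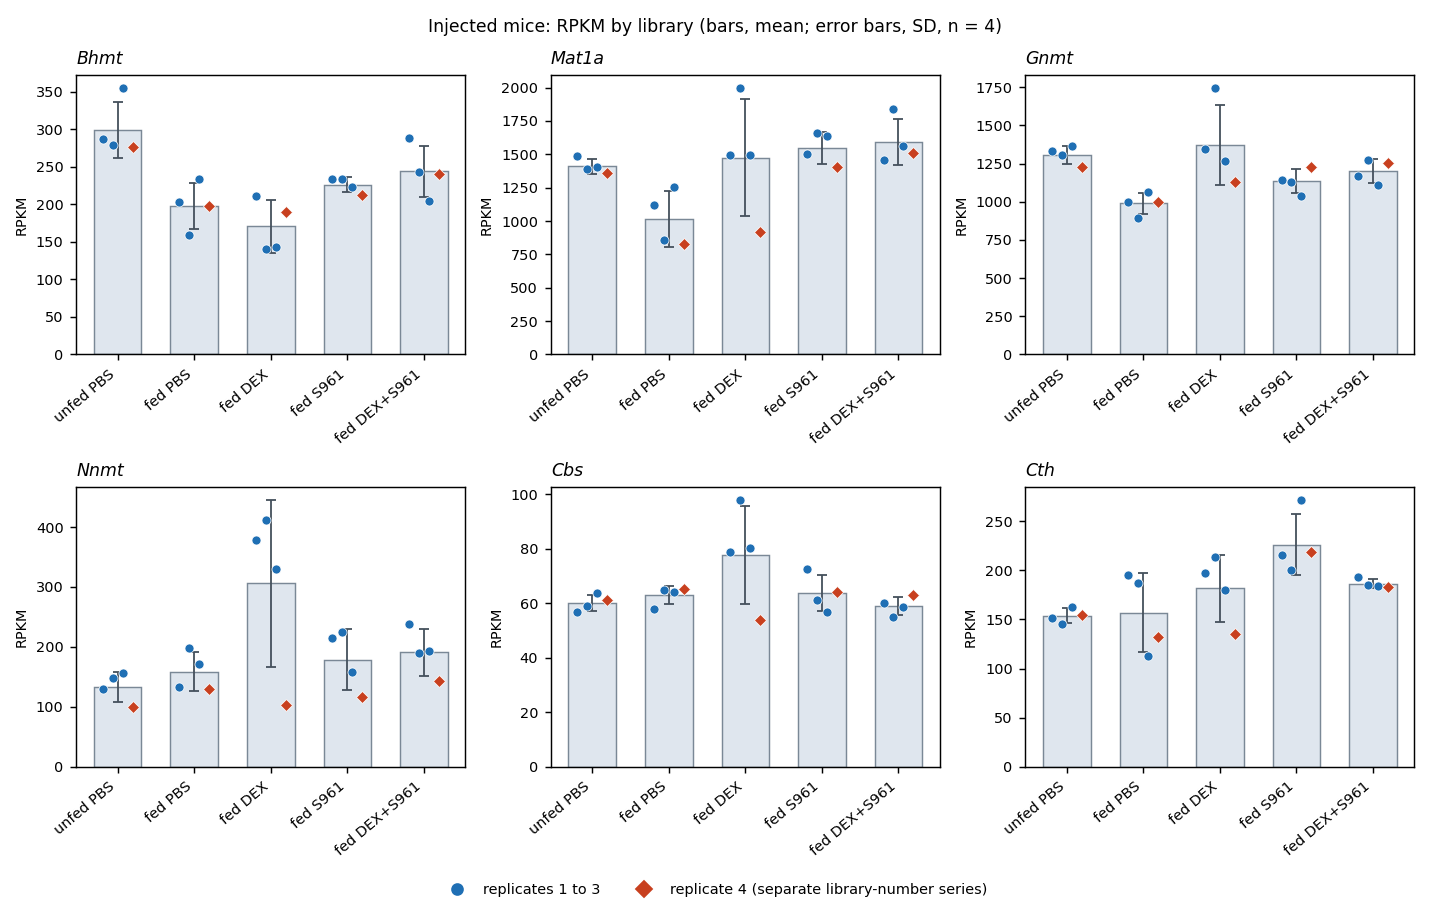
RPKM of members in the 5 groups of injected mice, with a point per library, bars for means and error bars for SD (n = 4). Diamonds mark replicate 4, which for Nnmt lies at 104 RPKM with dex while replicates 1 to 3 lie at 330 to 412 RPKM.

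Block of the insulin receptor with S961 was compared with the same fed vehicle mice. No member was called, against 1.92% of genes, and 2 had an unadjusted p under 0.05, as did 1616 of the 11353 genes. Mat1a was at 1504, 1657, 1634 and 1402 RPKM, each above the 4 vehicle livers, with a log2 change of 0.63 (SE 0.18, adjusted p = 0.082). Cth was at 215, 200.1, 272 and 218 RPKM against 195, 188, 113 and 133 RPKM, also without overlap, with a log2 change of 0.55 (SE 0.16, adjusted p = 0.087). With a term for the library series both were called, Mat1a at an adjusted p of 0.020 and Cth at 0.037, in a fit that called 480 genes instead of 218. Mtr was the third member without overlap, against 6.48% of all genes, and was lower (log2 change -0.23, SE 0.11). Pemt replicate 3 of this group, at 80.6 RPKM, stood below the other 3 at 154 to 181 RPKM. Of the Kupffer cell markers 3 of 6 were called lower, with sums of 48.2 to 71.5 RPKM against 71.7 to 110 RPKM, and their part was not tested.

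With dex plus S961, Mat1a rose. Its level was 1453, 1839, 1564 and 1511 RPKM, each above the vehicle livers, and the log2 change was 0.67 (SE 0.18, adjusted p = 0.022), or 1.59-fold. It was the 1 member called, beside 10.6% of genes in either direction and 2.68% higher. The median of all genes was -0.14, and Mat1a lay 0.81 above it. Without fed vehicle replicate 2 or 4, or dex plus S961 replicate 2, it was not called, at log2 changes of 0.57 to 0.59 and adjusted p-values of 0.062 to 0.080. After quantile normalization it was 0.52 (adjusted p = 0.065), and without the filter the adjusted p was 0.078. Gnmt, at 1166, 1273, 1109 and 1254 RPKM, was above every vehicle liver (log2 change 0.28, SE 0.11, adjusted p = 0.12). Mtr was at 1.15, 1.11, 0.861 and 1.14 RPKM against 1.46, 1.53, 1.58 and 1.41 RPKM, with a log2 change of -0.35 (SE 0.11, adjusted p = 0.054). These 3 were the members without overlap, against 17.1% of all genes. Kupffer cell markers were called lower for 4 of 6, and their part was not tested.

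Side by side against the shared vehicle group, Mat1a gave log2 changes of 0.51 with dex, 0.63 with S961 and 0.67 with both. Gnmt gave 0.46, 0.20 and 0.28, Cth gave 0.23, 0.55 and 0.28, and Nnmt gave 0.79, 0.15 and 0.27. Bhmt gave -0.22, 0.20 and 0.30. The interaction, the dex effect with S961 minus that without it, was called for none of 11353 genes by limma, although 515 had an unadjusted p under 0.05, and for no member in any alternative. Among the members, 2 had an unadjusted p under 0.05, Gnmt at -0.37 (SE 0.16) and Cth at -0.50 (SE 0.22), each with an adjusted p of 1.0.

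Loss of GR in hepatocytes of unfed mice lowered Nnmt. The level was 158, 142, 154 and 97.6 RPKM in the 4 GFP controls and 70.5, 31.4, 42.4 and 44.2 RPKM in the 4 L-GRKO livers, with no overlap. The means were 138 ± 27.7 and 47.1 ± 16.6 RPKM (SD, n = 4), and the log2 change was -1.58 (SE 0.23, adjusted p = 0.0031), that is 2.98-fold lower. Nnmt ranked 104 by p-value among 11763 genes. This was 1 of 10 members, beside 6.68% of genes in either direction and 2.23% lower. The call held without each library in turn, at log2 changes from -1.79 to -1.40. Without the filter on low values the adjusted p was 0.069. Nnmt has 7 GR sites within 20 kb of its start, all of them in DNase-accessible sites, and none held TGTTCT or the palindrome. Such sites are common, as 63.7% of the 950 placed genes at or above 50 RPKM have a GR site within 20 kb. Whether these sites bear on the lower Nnmt level in L-GRKO livers was not tested.

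Bhmt and Ahcy had lower means in L-GRKO livers. Bhmt was at 1291, 657, 872 and 446 RPKM in controls and 359, 530, 269 and 389 RPKM in L-GRKO livers. Control replicate 4 lay inside the L-GRKO range, and the log2 change was -1.01 (SE 0.30, adjusted p = 0.071) with it and -1.27 (adjusted p = 0.023) without it. Ahcy was at 818, 630.1, 751 and 656 RPKM in controls and 498, 586, 579 and 464 RPKM in L-GRKO livers, without overlap, for a log2 change of -0.42 (SE 0.12, adjusted p = 0.063). Ahcy and Nnmt were the 2 members without overlap, against 12.8% of all genes. Mat1a, Gnmt, Cbs, Cth, Pemt, Bhmt2 and Mtr overlapped, with log2 changes from -0.31 to 0.19, and the median of the members was -0.16 against 0.08 for all genes. The hepatocyte marker Cps1 (1 of 5) and the periportal markers Sds and Ass1 (2 of 5) were called lower too. The periportal list summed to 3050 to 3692 RPKM in controls and 2007 to 2417 RPKM in L-GRKO livers. The hepatocyte list overlapped, with sums of 28500 to 42160 RPKM in controls and 30210 to 41360 RPKM in L-GRKO livers. The stellate cell marker Lrat (1 of 5) was called higher. The part of these markers in the members' values was not tested.

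Loss of Irs1 and Irs2 in hepatocytes of fed, dex-injected mice lowered Bhmt and Bhmt2 and raised Mat1a. These were 3 of 10 members, beside 17.4% of 13083 genes called in either direction, 8.36% lower and 9.02% higher. Bhmt was at 73.2, 69.1, 86.7 and 77.7 RPKM in controls and 70.2, 40.5, 48.2 and 38.0 RPKM in L-IRSdKO livers. Bhmt2 was at 116, 123, 128 and 132 RPKM in controls and 118, 74.9, 82.2 and 70.5 RPKM in L-IRSdKO livers. In both genes replicates 2 to 4 lay below all controls and replicate 1 lay within the controls' range. The log2 changes were -0.67 (SE 0.18, adjusted p = 0.033) for Bhmt and -0.56 (SE 0.15, adjusted p = 0.032) for Bhmt2. Without L-IRSdKO replicate 1 they were -0.85 (adjusted p = 0.0009) and -0.71 (adjusted p = 0.0004). Without any single one of the other 7 libraries neither gene was called, and for Bhmt the log2 change then lay between -0.72 and -0.56. Both calls were also lost without the filter (adjusted p = 0.12 for Bhmt and 0.11 for Bhmt2) and without the variance trend (adjusted p = 0.052 and 0.053).

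Mat1a was at 459, 403, 473 and 403 RPKM in controls and 562, 525, 583 and 503 RPKM in L-IRSdKO livers, with no overlap. The log2 change was 0.32 (SE 0.07, adjusted p = 0.020). Of the members only Mat1a did not overlap, against 21.7% of all genes. It was called in 5 of the 8 fits that left out 1 library, and not without control replicate 2 or 4 or L-IRSdKO replicate 3 (0.29 in each, adjusted p-values of 0.053 to 0.058) or after median-ratio scaling, at 0.30 (adjusted p = 0.062). Without the filter its adjusted p was 0.15 and without the variance trend 0.056. Pemt was at 172, 184, 176 and 163 RPKM in controls and 165, 146, 151 and 135 RPKM in L-IRSdKO livers, a log2 change of -0.22 (SE 0.07, adjusted p = 0.062), and -0.27 (adjusted p = 0.016) without replicate 1. Ahcy was at 25.4 RPKM in L-IRSdKO replicate 1 and at 56.2 to 61.3 RPKM in the other 3, against 49.99 to 55.4 RPKM in controls. Gnmt and Cth had log2 changes of -0.01 (SE 0.08) and 0.02 (SE 0.10). Markers of several cell types moved in this comparison. Higher were 4 of 6 sinusoidal endothelium markers, with sums of 132 to 165 RPKM in L-IRSdKO and 104 to 133 RPKM in control livers, and 3 of 5 stellate cell markers, with sums of 232 to 249.6 and 179 to 209 RPKM. The Kupffer cell marker Clec4f (1 of 6) was higher too, with list sums of 269 to 339.6 and 154.5 to 285 RPKM. The cholangiocyte markers Krt7 and Spp1 (2 of 4) were lower, with sums of 7.87 to 13.9 and 19.7 to 46.2 RPKM. Lower too were Ttr (1 of 5 hepatocyte markers), Glul and Cyp1a2 (2 of 5 pericentral ones) and Cyp2f2 (1 of 5 periportal ones). Whether these bear on the members was not tested.

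**Figure D5:**
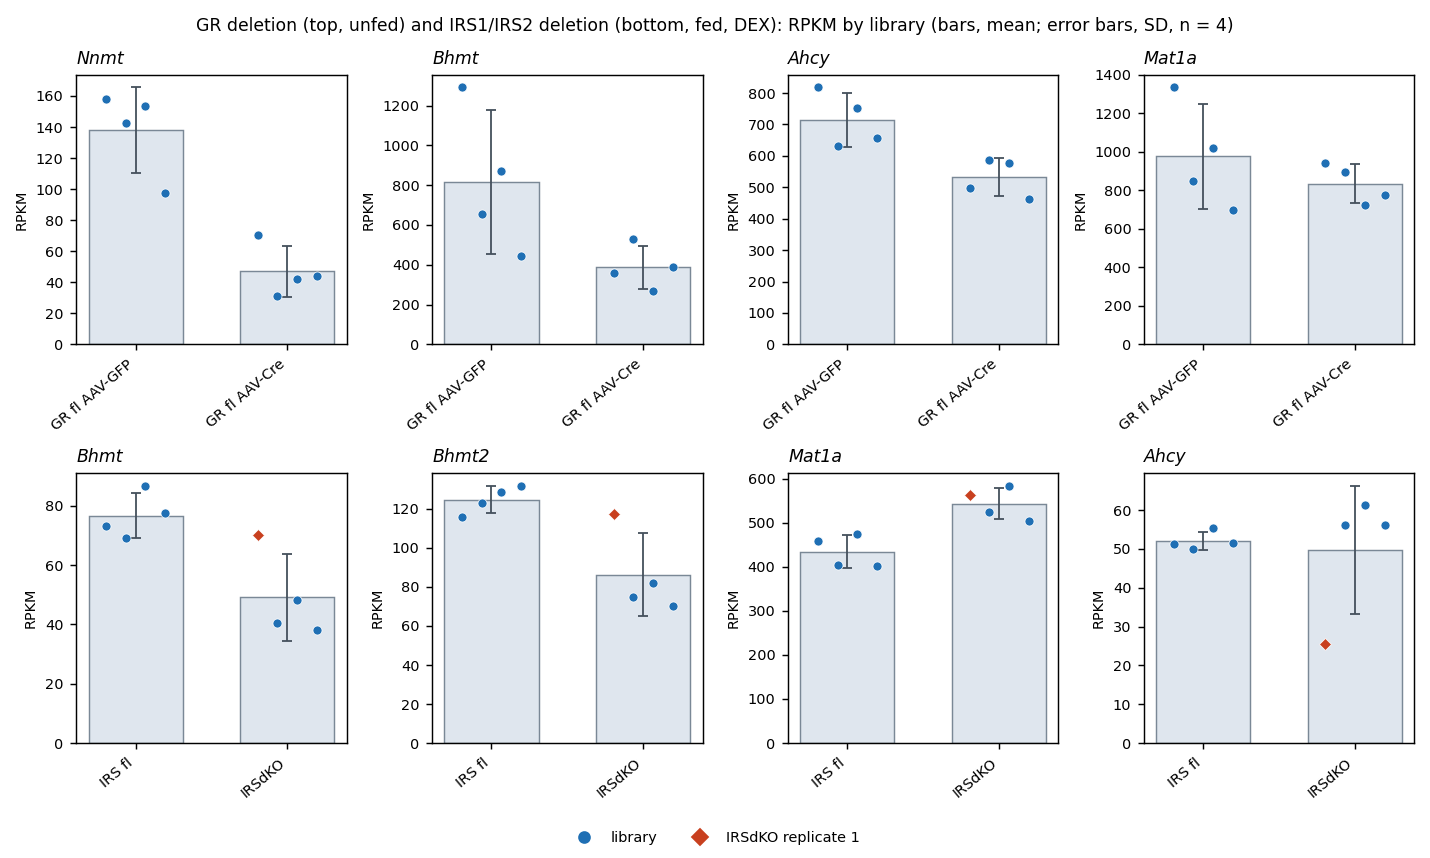
RPKM of members in the L-GRKO experiment (top) and the L-IRSdKO experiment (bottom), with a point per library, bars for means and error bars for SD (n = 4). The diamond marks L-IRSdKO replicate 1, which for Bhmt and Bhmt2 lies with the controls while replicates 2 to 4 lie below them.

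Diet-induced obesity gave no call among the members. In unfed mice 0.771% of genes were called. Nnmt was at 269, 198 and 193 RPKM in lean and 91.0, 111 and 181 RPKM in DIO livers, without overlap, with a log2 change of -0.83 (SE 0.24, adjusted p = 0.073). Gnmt was at 2592, 1472 and 1764 RPKM in lean and 1655, 817 and 1046 RPKM in DIO livers, with DIO replicate 1 inside the lean range, and its log2 change was -0.75 (SE 0.26, adjusted p = 0.12). Only Nnmt did not overlap, against 22.9% of genes. Of 6 endothelial markers Clec4g was called lower, and their list summed to 35.1 to 46.7 RPKM in DIO and 63.0 to 76.2 RPKM in lean livers. Its part in the members' values was not tested.

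In fed mice the difference between DIO and lean was largest among the members for Gnmt, at 1604, 1421 and 1897 RPKM in lean and 917, 1019 and 814 RPKM in DIO livers. The groups did not overlap and the log2 change was -0.84 (SE 0.26, adjusted p = 0.13). Pemt was at 267, 243 and 252 RPKM in lean and 195, 190 and 184 RPKM in DIO livers, also without overlap (log2 change -0.42, SE 0.10, adjusted p = 0.083). Nnmt, at 211, 168 and 270 RPKM in lean and 132, 151 and 147 RPKM in DIO livers, gave -0.57 (SE 0.24, adjusted p = 0.22). These 3 were the members without overlap, against 32.6% of genes. In this comparison limma called none of 11541 genes (0.0%), although 2310 had an unadjusted p under 0.05, and no alternative called a member. Cth was at 204, 256 and 398 RPKM in lean and 210.1, 161 and 162 RPKM in DIO livers, and the groups overlapped. The hepatocyte markers summed to 42760.0 to 45490.0 RPKM in DIO and 52850.0 to 56850.0 RPKM in lean livers, the periportal ones to 1507 to 1899 and 2082 to 2408 RPKM, and the pericentral ones to 7356 to 7729 and 5565 to 6187 RPKM, with no marker called. Their part was not tested.

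The surrounding pathway was read from 63 further genes in 7 lists (methionine and S-adenosylmethionine, folate, choline and betaine, methyl acceptors, cysteine, sulfide and glutathione, methionine salvage, and cobalamin), of which 62 were in the table. After the meal none was called in the NRF, vehicle-injected or DIO mice, where 1.0%, 3.12% and 1.2% of all genes were. In lean mice 6 of 59 rose and 1 fell, against 10.3% of all genes called. The folate carrier Slc25a32 fell from 14.2 to 5.40 RPKM (log2 change -1.32, SE 0.16), and Mat2a, another methionine adenosyltransferase gene, rose from 18.6 to 28.0 RPKM (0.59, SE 0.12). Mpst, a sulfurtransferase of cysteine breakdown, rose by 0.86 (SE 0.12) and Mtap, of the methionine salvage route, by 0.60 (SE 0.11). The median log2 change of the 59 was 0.11 and that of all genes 0.08. Between ZT10 and ZT14-unfed 4 of 59 were called, against 1.17% of all genes. Got1, the cytosolic aspartate aminotransferase, rose by 1.33 (SE 0.16) and Chka, choline kinase, by 1.35 (SE 0.13), while the sulfur dioxygenase Ethe1 fell by 0.94 (SE 0.12) and Amt, of the glycine cleavage system, by 0.75 (SE 0.09).

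In the injected mice the same 60 genes were tested against the shared fed vehicle group. With dex 2 rose, Got1 at 1.07 (SE 0.27) and Csad, which makes hypotaurine from cysteine sulfinate, at 0.70 (SE 0.17). With S961 2 rose, Got1 at 1.09 (SE 0.27) and Slc25a32 at 0.83 (SE 0.21). With both 4 rose, Got1 at 1.53 (SE 0.27), Slc25a32 at 1.33 (SE 0.21), the folate polyglutamyl synthase Fpgs at 0.67 (SE 0.21) and the cysteine dioxygenase Cdo1 at 0.59 (SE 0.14). None fell in these 3 comparisons, in which 3.19%, 1.92% and 10.6% of all genes were called. The list medians were -0.04, 0.02 and -0.06, and those of all genes -0.10, -0.08 and -0.14.

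In L-GRKO livers 10 of 60 rose and 5 fell, against 6.68% of all genes called, with a list median of 0.10 against 0.08 for all genes. Gldc, the glycine decarboxylase, fell from 46.9 to 12.2 RPKM (log2 change -1.94, SE 0.20) and Got1 from 238 to 85.9 RPKM (-1.40, SE 0.21). Inmt, an amine methyltransferase, rose from 242 to 609 RPKM (1.41, SE 0.25). Slc19a1, the reduced folate carrier, fell from 4.44 to 2.04 RPKM (-0.96, SE 0.15). In L-IRSdKO livers 5 rose and 17 fell, against 9.02% of all genes higher and 8.36% lower, with a list median of -0.13 against 0.03. The mitochondrial folate enzymes went both ways, Mthfd2 at -1.18 (SE 0.27) and Mthfd1l at 1.13 (SE 0.25), while Slc25a32 rose by 1.15 (SE 0.26) and Ahcyl2, a relative of Ahcy, fell by 1.08 (SE 0.17). In unfed DIO mice Amt alone was called and rose by 0.78 (SE 0.11), 1 of 59 against 0.771% of all genes, and none was called in fed DIO against fed lean mice, as for all genes (0.0%).

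The members' patterns were compared over the 16 group means, each centred within its experiment, with all 6536 genes of at least 5 RPKM. Among members Bhmt and Bhmt2 were the most alike pair, with a correlation of 0.795. The genes most like Mat1a were Bnip3 (0.886), Got1 (0.878) and Cyp2b10 (0.871). For Gnmt they were Rpph1 (0.933), Cyp26a1 (0.921) and Csad (0.906), and for Nnmt Gusb (0.921), 2900009J06Rik (0.921) and Acmsd (0.900). For Bhmt they were Ext1 (0.874), S100a10 (0.854) and Prodh (0.840), and for Bhmt2 Serpina12 (0.924), Lmf1 (0.922) and Sdr9c7 (0.901). The points share libraries and control groups, and the correlations are descriptions.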

How the data were processed

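RNA was sequenced from 54 mouse livers by the authors, whose notes name STAR, HOMER, DESeq2 and build mm9, and the deposited table gives RPKM for 35707 RefSeq transcripts. How multiply mapped or duplicate reads were counted is not given in the sources used here. Transcripts were reduced to 1 per symbol (24612 entries, 300 of them without a symbol). Groups came from the sample titles. Each experiment was fitted by itself on log2(RPKM + 0.5), by limma 3.58.1 with a variance trend (R 4.3.3). Genes whose mean reached 0.5 RPKM in that experiment entered, and p-values were Benjamini-Hochberg adjusted over all of them. A count test could not be used on RPKM, so depth per library was estimated from the smallest steps of low values in 7563 single-transcript genes, an estimate that may be too low in the L-IRSdKO experiment. Depth limits the precision for Mtr, with an estimated 14.6 to 66.8 reads in the L-IRSdKO experiment and 36.6 to 79.7 in the injected mice.

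Replicates are separate mice, so p-values measure the spread between mice. The titles repeat replicate numbers across groups, but no source says that a number marks a shared cage or day. Alternatives were another pseudocount (0.1 or 1), dropping the filter or raising it to 2 RPKM, median-ratio or quantile scaling, all transcripts, no variance trend, the compared groups alone, a replicate block, library series and leaving out each library. The steps were tested on simulated data. Members always named were the 10 genes, with at most 4 further pathway genes per comparison by size of change. The members and lists were chosen with earlier results of these data known.

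The deposited GR, FOXO1 and DNase lists hold positions with no score. GR and FOXO1 sites had been kept where replicates of ZT14-unfed livers were concordant, and DNase sites came from all DNase libraries combined. Distances were taken to the start of the RefSeq-matched gene in a mouse annotation of the same build. Transcript copies were searched with blastn 2.17.0. Python 3.11.15, pandas 2.3.3, numpy 2.4.6 and matplotlib 3.10.9 were used for the rest. The genes most like Mtr are not reported here.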

Additional observations from a re-analysis of the deposited data

Results flagged for a closer look

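The 10 genes in 9 groups of 4 libraries gave 90 sets of values, of which 7 held a value far from the other 3, measured by its gap to the nearest as a share of the whole range. Chance gives about 1 in 20. Groups of 2 or 3 were not tested. Bhmt was at 355 RPKM in unfed vehicle replicate 3, against 276 to 287 RPKM in the others, and all 4 lay above the fed vehicle livers. Ahcy was at 52.3 RPKM in fed vehicle replicate 4, against 68.9 to 72.2 RPKM, and at 25.4 RPKM in L-IRSdKO replicate 1, against 56.2 to 61.3 RPKM. Cbs was at 58.0 RPKM in fed vehicle replicate 1, against 64.0 to 65.1 RPKM. Pemt was at 213 RPKM in L-GRKO replicate 3, against 182 to 187 RPKM. Mtr was at 0.905 RPKM in S961 replicate 4, against 1.27 to 1.33 RPKM, and at 0.861 RPKM in dex plus S961 replicate 3, against 1.11 to 1.15 RPKM. No cause was tested.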

How the results depend on the processing

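The values are called members per comparison, with the genes called in the same fit in brackets. Fits without the filter tested 24612 genes. After the meal in vehicle-injected mice the count was 1 (354 genes). It became 0 without the filter (183) or with the compared groups alone (276). It became 2 with the filter raised to 2 RPKM (312), with median-ratio scaling (222) or replicates 1 to 3 alone (717). It was 3 with a library series term (1036), and lay between 0 and 1 when 1 library was left out. With dex, 1 (362 genes) became 0 without the filter (230), after quantile normalization (279) or with the compared groups alone (87). It became 3 with a series term (1107) and 4 with replicates 1 to 3 alone (828), and lay between 0 and 4 with 1 library left out. With S961, 0 (218 genes) became 2 after median-ratio scaling (206) or with a series term (480). With dex plus S961, 1 (1199 genes) became 0 without the filter (924) or after quantile normalization (708). It became 2 after median-ratio scaling (774), without the variance trend (1226), with a series term (2213) or with replicates 1 to 3 alone (1300), and lay between 0 and 1 with 1 library left out. In L-GRKO livers 1 (786 genes) became 0 without the filter (176) and 2 after median-ratio scaling (663) or quantile normalization (701). With 1 library left out it lay between 1 and 2. In L-IRSdKO livers 3 (2274 genes) became 0 without the filter (1052) or without the variance trend (1960), and lay between 0 and 4 with 1 library left out. The 8 other comparisons stayed at 0 called members in all their alternatives. The causes were not tested.

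Same-numbered libraries did not deviate together in every pair (correlations of -0.118 to 0.606 in the injected mice, -0.051 to 0.156 in L-GRKO and -0.063 to 0.067 in L-IRSdKO), so the numbers were not taken as pairs. In the injected mice the median was 0.143 for same-numbered and -0.053 for other-numbered libraries, and the source of that difference was not tested. A replicate block gave 2 called members for the vehicle meal, 2 for dex, 1 for S961, 2 for dex plus S961, 1 for L-GRKO and 1 for L-IRSdKO. In the same order, the block fits called 933, 975, 436, 2045, 625 and 1441 genes. The main fits called 354, 362, 218, 1199, 786 and 2274.

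Of 140 values, 35 had an unadjusted p under 0.05 or were called in an alternative, and 0 of these changed sign. Of the other 105, 42 did. Site counts near the members at 20 kb and 100 kb gave 9 and 9 genes with a GR site and 9 and 10 with a FOXO1 site. Depth limits Mtr most, and in the L-IRSdKO experiment the low top of the scale limits Mat1a and Gnmt.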

Other observations

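Among members without a call, the genes with the most similar centred group means were Ncoa4 (0.913), Asl (0.900) and St3gal5 (0.882) for Ahcy, and Fkbp8 (0.966), Oaz1 (0.938) and Oaz1-ps (0.931) for Pemt. For Cbs they were Nit1 (0.868), Man2c1 (0.862) and Serpinf2 (0.850), and for Cth Supt4a (0.865), Trappc6b (0.832) and Lhpp (0.803). The correlations are over 16 group means that share libraries.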
